A study of Mus musculus with 6 samples.

Results

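The genes described here are 31 members of cholesterol and fatty acid synthesis, measured by RNA sequencing in LSK cells of mice with and without Asxl2. They were chosen by symbol, as enzymes, regulators and desaturases of these pathways, and make up 31 of the 24063 gene symbols in the count files. LSK cells, sorted from bone marrow as negative for lineage markers and positive for both Sca-1 and c-Kit, include the blood stem cells and their first progeny. The comparison was of 3 Asxl2-/- with 3 control libraries, all from C57BL/6 mice injected with pIpC. The synthetic RNA pIpC drives an interferon response, and with it the Mx1-cre transgene, which both groups carry according to the library titles. In the knockout group Mx1-cre deletes exon 11 of the Asxl2 fl/fl alleles, and the controls are labelled wild type. Mx1-cre is not restricted to blood cells, since it is active wherever interferon induces the Mx1 promoter. Neither the age nor the sex of the mice is in the labels. The question is whether loss of Asxl2, a chromatin-associated polycomb group protein, goes with a change in the genes of lipid synthesis in these cells.

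Cholesterol is built in every nucleated cell from acetyl-CoA. A first stretch of enzymes makes mevalonate and then isoprenoid units, which are joined to squalene, and a second stretch closes the squalene into a ring and trims it to cholesterol. Fatty acids are made from the same acetyl-CoA by carboxylation, chain growth, elongation and desaturation. The transcription factors Srebf1 and Srebf2 switch on the genes of both branches when sterols are scarce, whereas LXR receptors, which sense oxidised sterols, switch on genes that export cholesterol. Blood progenitors need these lipids for new membrane when they divide.

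The labels were checked first. In the exon-count files, 28 of 4804 counts on Asxl2 fell on exon 11 in Asxl2-/- replicate 2, a share of 0.583% (95% Wilson interval 0.404% to 0.841%, counting error only), against 10.3% and 11.99% in control replicates 1 and 3. Counts over the whole gene do not show the deletion, with a log2 fold change of 0.11 (adjusted p = 0.469), and the gene-count files of Asxl2-/- replicates 1 and 3 hold no exon values with which to look for it. Total counts on genes were 25528540 to 29136012 in the 3 gene-count files, which give 1 count per transcript, and 53147729 to 55032075 in the 3 exon-count files. These give 1 count per exon, so that reads across a splice junction can count more than once. The members' values in CPM, counts scaled to a common library total, were therefore compared only within a kind of file, and the kind of file was a term in the fit. The gene-count files were Asxl2-/- replicates 1 and 3 and control replicate 2, and the exon-count files were Asxl2-/- replicate 2 and control replicates 1 and 3. The LSK markers Kit (c-Kit), Cd34 and Flt3 were present in every library, Kit at 280.0 CPM or more, whereas Ly6a, which encodes Sca-1, was at 52.6 and 57.6 CPM in the knockout gene-count libraries against 259.8 CPM in the control, and 69.1 CPM in the knockout exon-count library against 40.5 and 148 CPM in the controls. Xist was at 1071 to 2351 CPM in the knockout libraries and at 13.0 to 61.3 CPM in the controls, and the 4 Y-linked genes measured were at 32.7 CPM or more in the controls and at 0.0705 CPM or less in the knockouts, so genotype and sex cannot be told apart in these libraries.

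None of the 31 members passed the threshold for a difference between Asxl2-/- and control cells (edgeR's quasi-likelihood test, Benjamini-Hochberg adjusted p under 0.05), beside 331 of the 14145 genes tested, or 2.34% (2.04% raised and 0.304% lowered). All 31 passed the filter on low counts. The lowest adjusted p among the members was 0.108, for Fasn. An unadjusted p under 0.05 was reached by 5 members (16.1%), with Fasn, Fdps and Acat2 lower and Fads1 and Srebf2 higher in the knockouts, against 27.7% of all genes. DESeq2 gave 4 members and limma-voom 5 at the same unadjusted level, against 29.9% and 27.6% of all genes. After adjustment DESeq2 called 1 member, Fasn, against 16.5% of all genes, and limma-voom 0, against 3.04%. With the replicate number as a block, which leaves 1 residual degree of freedom, 3 members were called, Fasn and Fdps lower and Fads1 higher, against 36.6% of all genes. Whether the numbers pair the libraries is not settled.

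Although no member was called, most values lay on the same side. The log2 fold change, Asxl2-/- over control, was below 0 for 25 of the 31 members (80.6%), against 49.9% of all genes, with a median of -0.14 among the members and 0.00 among all genes. It ran from -0.55 for Fdps to 0.32 for Fads1. Genes with shared regulators can move together, so the members are not independent of each other. These counts are a description, and no test was made on them. With library size as the only scaling, which moved the median of all genes to 0.10, the members below 0 numbered 20, and the members below the median of all genes were again 25. The values below 0 were mostly those of sterol enzymes, 17 of 18 with a median of -0.21, whereas among the 9 fatty acid enzymes 6 were below 0 with a median of -0.01. With library size alone these counts were 15 of 18 and 3 of 9, and those below the median of all genes were 17 of 18 and 6 of 9. Control replicate 2 is the only control with a gene-count file. Without it the counts were 16 of 18, with a median of -0.13, and 7 of 9, with a median of -0.09.

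The precision of the fit limits how large a difference can have gone unseen. The 95% interval of the log2 fold change lay within -1 and 1, that is within a change of 2-fold, for 28 of the 31 members (90.3%) and for 68.1% of all genes. The exceptions were Fdps (-1.04 to -0.05), Me1 (-1.64 to 2.15) and Scd1 (-2.07 to 2.27). For 17 members the interval lay within -0.5 and 0.5. The 29 members with at least 100 counts in every library had standard errors of 0.0801 to 0.204, and the largest decrease among them was 1.46-fold. In these bulk samples fewer cells of a type and less RNA per cell cannot be told apart.

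**Figure D1:**
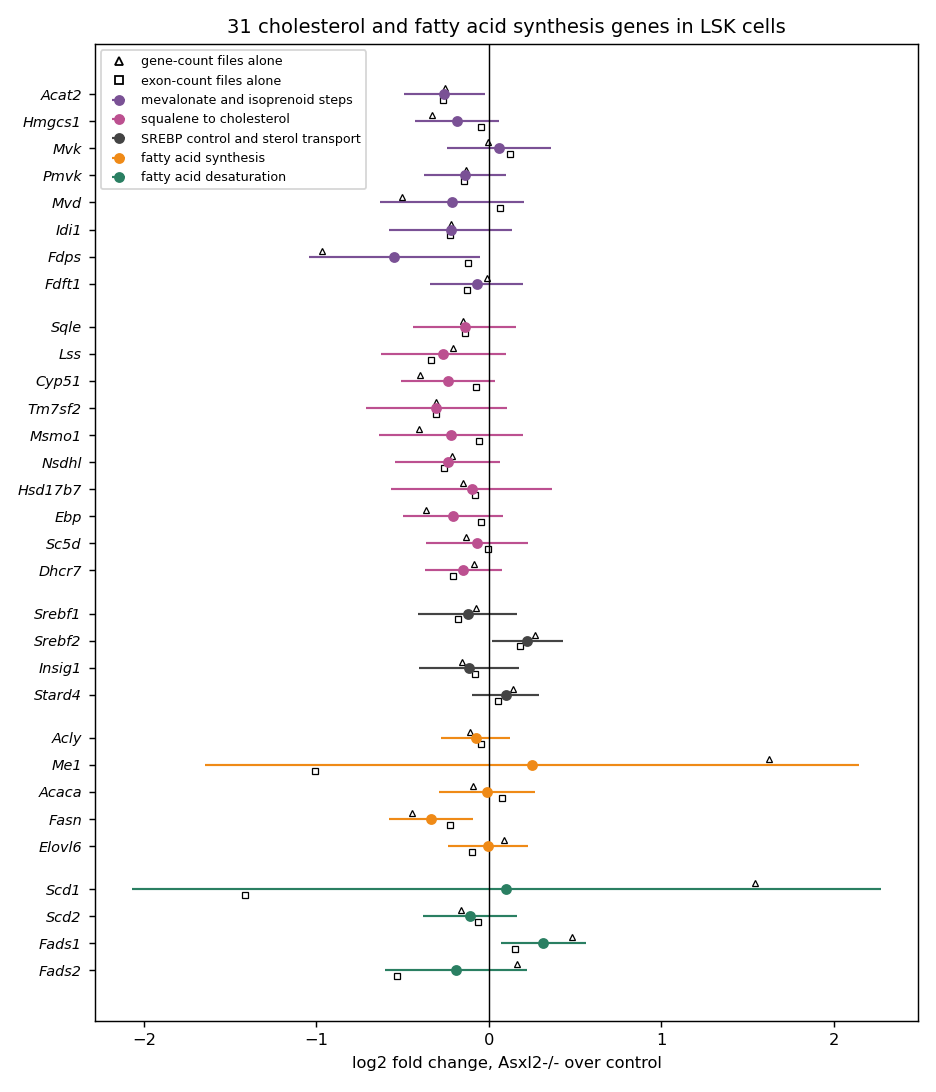
Log2 fold change of Asxl2-/- over control LSK cells for the 31 genes, grouped by role. Filled points are the fit over all 6 libraries with 95% intervals, triangles the gene-count files alone (2 knockouts, 1 control) and squares the exon-count files alone (1 knockout, 2 controls). The 10 genes from squalene to cholesterol all sit left of 0, and only Scd1 and Me1 have wide intervals, with the 2 kinds of file on opposite sides.

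Markers of other cells moved between the same libraries. B-lymphoid markers rose in 9 of 14, Cd79a, Ebf1 and Vpreb3 among them, and megakaryocyte markers in 6 of 13, Vwf, Ppbp and Gp5 among them, with summed levels in knockouts and controls of 272 to 348 against 91.6 to 196 CPM and of 481 to 1013 against 243 to 469 CPM over both kinds of file, and the groups of both lists did not overlap within either kind. Of the LSK markers 2 of 10 rose, Slamf1 among them, and of the neutrophil and monocyte markers 2 of 14, Ltf and Ngp. Erythroid markers had 0 of 14 called and 12 below 0, with a median of -0.97, and their summed level was 1401 and 2457 against 3100.3 CPM in gene-count files and 1756 against 3763 and 5202 CPM in exon-count files, so the groups did not overlap within either kind. None was called among 16 cell cycle genes (median -0.09), 14 interferon response genes (median -0.59), 9 macrophage (0.08) and 10 T and NK markers (0.22). Of the interferon response genes, however, 11 were below 0 and 3 above. Their summed level was 455 and 672 against 1313 CPM in gene-count files. In exon-count files it was 785 against 709 and 1391 CPM, so the groups overlapped there. Of 11 endothelial and stromal markers none was called either, but 10 were above 0 and 1 below, with a median of 0.94. Their summed level was 273 and 178 against 124 CPM in gene-count files. In exon-count files it was 183 against 187 and 133 CPM, so the groups overlapped there. The part of these differences in the values of the lipid genes was not tested.

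Levels between genes were compared per kilobase of exon bases, in the gene-count files only. Scd2, the stearoyl-CoA desaturase that makes monounsaturated fatty acids, had the highest mean of the 3 libraries at 77.97 CPM per kb. Acly, which supplies cytosolic acetyl-CoA from citrate, followed at 76.3 CPM per kb. The libraries of this pair overlapped, so their order is not resolved. Srebf2 had 48.6 CPM per kb, Fdps 37.9, Srebf1 31.8, Fasn 29.7, Fads2 29.4 and Ebp 25.8. These means pool 2 knockouts with 1 control, and the place of Fdps rests on the control, at 56.1 CPM per kb against 28.3 and 29.1 in the knockouts. The lowest levels were those of Hsd17b7 (2.29 CPM per kb), Scd1 (1.77) and Me1 (0.339), so that of the stearoyl-CoA desaturases among the members Scd2 was the abundant one in LSK cells. Me1, malic enzyme, supplies NADPH for fatty acid synthesis. The other 20 members lay between 3.52 and 22.4 CPM per kb.

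**Figure D2:**
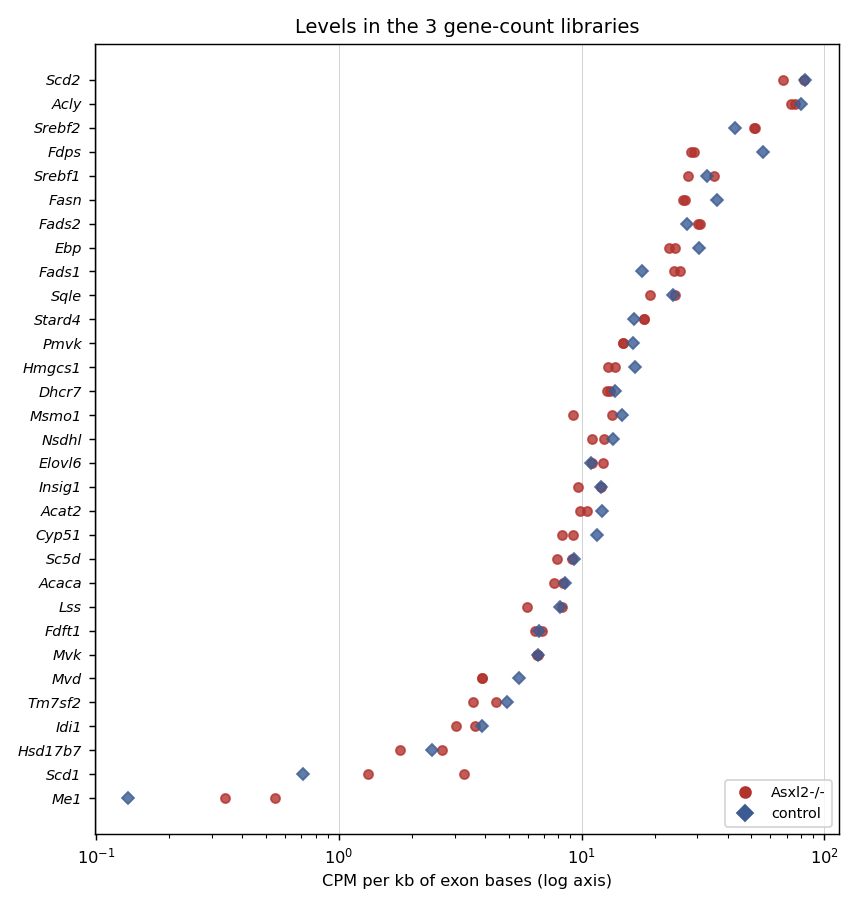
CPM per kilobase of exon bases (log axis) for the 31 genes in the 3 gene-count libraries, ordered by their mean. Red circles are Asxl2-/- replicates 1 and 3 and blue diamonds control replicate 2. Scd2 and Acly are at the top, Scd1 and Me1 at the bottom, and for most genes the 3 libraries lie close together.

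The mevalonate and isoprenoid steps were represented by 8 enzymes. Acat2, a thiolase that joins acetyl-CoA units at the start of the pathway, was at 21.9 and 20.5 CPM in the knockout gene-count libraries against 25.2 CPM in the control, and 19.8 CPM in the knockout exon-count library against 23.7 and 24.02 CPM in the controls. Every knockout library was thus below every control of its kind, and the fit gave a log2 fold change of -0.26 (SE 0.0967, adjusted p = 0.155). Acat2 lies on chromosome 17, 12943042 to 12960725 (mm10). Hmgcs1, the synthase that forms HMG-CoA, was at 48.9 and 45.9 against 59.7 CPM in gene-count files and 45.8 against 48.4 and 45.96 CPM in exon-count files. Its groups did not overlap within either kind of file, but in the exon-count files the knockout was only just below the lower control, and the fit gave a log2 fold change of -0.19 (SE 0.0998, adjusted p = 0.271).

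Mvk, Pmvk and Mvd are the kinases and the decarboxylase that turn mevalonate into isopentenyl diphosphate, and Idi1 isomerises it. Mvk had 10.9 and 10.9 against 10.9 CPM in gene-count files and 16.8 against 16.5 and 14.5 CPM in exon-count files. It was the sterol enzyme with a fold change above 0, at 0.06 (SE 0.123). Pmvk was at 17.7 and 17.7 against 19.3 CPM in gene-count files and 20.6 against 22.4 and 23.2 CPM in exon-count files, and its log2 fold change was -0.14 (adjusted p = 0.388). For Mvd the log2 fold change was -0.50 within gene-count and 0.06 within exon-count files, so the sign was not shared. Idi1 was lower in the knockouts within both kinds of file, with a log2 fold change of -0.22 (SE 0.147, adjusted p = 0.358).

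Fdps, farnesyl diphosphate synthase, makes the branch-point isoprenoid from which sterols, ubiquinone side chains and prenyl groups are drawn. It had the lowest fold change of all members, but the kinds of file gave different values. Fdps was at 41.4 and 42.6 CPM in the knockout gene-count libraries against 81.97 CPM in the control, and 78.1 CPM in the knockout exon-count library against 73.5 and 98.2 CPM in the controls. In the exon-count files the knockout lay between the controls, and the log2 fold change was -0.12, whereas in the gene-count files it was -0.96. The fit over all libraries gave a log2 fold change of -0.55 (SE 0.204, adjusted p = 0.155). Without Asxl2-/- replicate 2 it was -0.96, and without control replicate 2 it was -0.13. With the kind of file as a term, the former compares the groups in gene-count files only, with control replicate 2 as the only control. The latter compares them in exon-count files only, with Asxl2-/- replicate 2 as the only knockout. Over the rest of the alternatives with a test the adjusted p ran from 2.93e-06 with a replicate block to 0.354. Fdft1, squalene synthase, had a log2 fold change of -0.07 (SE 0.111). Of its exon bases 27.0% are shared with the overlapping gene Ctsb, and how reads there were divided between both genes was not tested.

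From squalene to cholesterol, 10 enzymes were measured and all 10 had a log2 fold change below 0, in the joint fit and in each kind of file alone, with a median of -0.21 in the fit and none past the threshold (lowest adjusted p 0.228). Of all genes 50.4% were below 0 in gene-count files and 50.3% in exon-count files, but the 10 are not independent of each other. Of these 10, Sc5d turned above 0 with library size alone and without the file kind as a term, and Hsd17b7 without Asxl2-/- replicate 1. Without control replicate 2 all 10 stayed below 0, with a median of -0.11. For 5 of the 10 every knockout library was below every control of its kind, against 23.3% of all genes. Tm7sf2, a sterol reductase that shares its reaction with the lamin B receptor, had the lowest fold change at -0.30 (SE 0.169, adjusted p = 0.284), with 5.29 and 6.59 against 7.29 CPM in gene-count files and 7.57 against 8.77 and 10.02 CPM in exon-count files. Lss, which closes squalene epoxide into lanosterol, was at 18.6 and 25.8 against 25.3 CPM in gene-count files and 30.3 against 38.6 and 37.9 CPM in exon-count files. The knockout gene-count libraries lay on both sides of the control, and the fit gave a log2 fold change of -0.26 (SE 0.149, adjusted p = 0.291). Cyp51, the demethylase of lanosterol, was at 36.2 and 40.3 against 50.4 CPM in gene-count files and 38.99 against 39.2 and 43.1 CPM in exon-count files. It came closest to the threshold among the 10, with a log2 fold change of -0.24 (SE 0.113, adjusted p = 0.228), although in the exon-count files the knockout was below the nearest control by less than 1 CPM.

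Nsdhl and Ebp, enzymes of the demethylation and isomerisation steps, are both encoded on the X chromosome. Nsdhl had 24.4 and 27.5 against 29.98 CPM in gene-count files and 25.7 against 27.6 and 34.4 CPM in exon-count files, and its log2 fold change was -0.24 (SE 0.126). Ebp was at 42.4 and 39.8 against 52.8 CPM in gene-count files and 44.7 against 42.2 and 50.5 CPM in exon-count files, with -0.21 (SE 0.1199) as the log2 fold change. Sqle, the squalene epoxidase, was at 52.4 and 66.5 against 65.4 CPM in gene-count files and 65.9 against 67.6 and 77.8 CPM in exon-count files, which put the groups in overlap within gene-count files. For Msmo1, a methyl sterol oxidase, the values were 16.9 and 24.4 against 26.9 CPM in gene-count files and 20.5 against 20.7 and 21.8 CPM in exon-count files and the log2 fold change -0.22 (SE 0.172). Dhcr7, the last reductase of the pathway, was lower in the knockouts within both kinds of file, with a log2 fold change of -0.15 (adjusted p = 0.329). Hsd17b7 and Sc5d were the nearest to 0, at -0.10 and -0.07, and both overlapped between the groups.

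The sum of the 18 sterol enzymes was 434 and 474 CPM in the knockout gene-count libraries and 566 CPM in the control, and 519.7 CPM in the knockout exon-count library and 543 and 597 CPM in the controls. Within each kind of file the knockouts were lower, by a margin in the exon-count files that was smaller than the gap between the controls.

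Promoters were read for letters that factors of this pathway are known to use, because the sterol enzymes lay on the same side. RefSeq windows (GRCm38.p6, the primary build behind mm10) of the 250 bases before a transcript start matched 24 of the 31 members, with 30 windows in all. The sterol regulatory element was searched as TCACNCCAC and the CCAAT box, which the factor NF-Y binds, as CCAAT, each on both strands. This string was found in 1 member, Hmgcs1, and in 1.05% of 32851 promoters of the same length. Sites that differ from it by a letter were not counted, such as TCACCCCAT in the window of Srebf2. A window without a match therefore lacks the string, which does not show that it lacks a working element. CCAAT occurred in windows of 19 members, in 66.7% of the members' windows and 33.8% of all promoters. The GC box GGGCGG, which Sp1 binds, was in 73.3% of the members' windows and 32.7% of all promoters. These are matches of letters, with no binding measured. The set of all promoters was not limited to genes that passed the filter on low counts, as all 31 members did. Shown here are Hmgcs1 as the window with the element, Msmo1 as a late sterol enzyme, Fasn as the member closest to the threshold, and Srebf2 as a member above 0. They are written 5′ to 3′, with capitals marking the element and CCAAT boxes on either strand (ATTGG on the reverse).
Hmgcs1 (chr13:119690101-119690350, plus strand): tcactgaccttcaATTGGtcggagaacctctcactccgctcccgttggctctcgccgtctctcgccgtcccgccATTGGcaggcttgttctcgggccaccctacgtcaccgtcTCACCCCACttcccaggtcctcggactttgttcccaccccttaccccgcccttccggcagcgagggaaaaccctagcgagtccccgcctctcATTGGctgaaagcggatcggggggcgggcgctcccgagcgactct
Msmo1 (chr8:64733579-64733828, minus strand): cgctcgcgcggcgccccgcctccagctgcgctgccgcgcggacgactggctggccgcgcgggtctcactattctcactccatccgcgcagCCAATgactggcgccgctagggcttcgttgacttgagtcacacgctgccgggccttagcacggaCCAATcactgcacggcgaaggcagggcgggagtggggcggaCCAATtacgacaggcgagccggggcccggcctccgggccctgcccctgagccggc
Fasn (chr11:120824548-120824797, minus strand): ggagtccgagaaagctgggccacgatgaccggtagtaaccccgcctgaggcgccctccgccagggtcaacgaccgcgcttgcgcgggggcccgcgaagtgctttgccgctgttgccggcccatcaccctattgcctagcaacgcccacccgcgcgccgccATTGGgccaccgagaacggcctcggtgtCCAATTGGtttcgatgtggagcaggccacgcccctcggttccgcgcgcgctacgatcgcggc
Srebf2 (chr15:82147019-82147268, plus strand): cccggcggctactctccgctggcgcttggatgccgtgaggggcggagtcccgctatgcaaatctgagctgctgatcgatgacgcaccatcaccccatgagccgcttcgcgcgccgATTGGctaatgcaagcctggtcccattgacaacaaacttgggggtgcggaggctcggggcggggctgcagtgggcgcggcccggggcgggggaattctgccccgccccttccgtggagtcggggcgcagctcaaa

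In Hmgcs1 the element begins 137 bases before the start, with CCAAT boxes on both sides of it. Msmo1 and Fasn hold 3 CCAAT boxes each, and in Fasn the last pair overlaps. The window of Srebf2 holds 1 box, so a CCAAT box was present in members on both sides of 0. Mvk, the sterol enzyme above 0, had the most of all members' windows, with 5.

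The regulators split in direction. Srebf2, the SREBP that acts mainly on sterol genes, was at 235 and 236 CPM in the knockout gene-count libraries against 195 CPM in the control, and 248 CPM in the knockout exon-count library against 230.2 and 208 CPM in the controls. Each knockout was above each control of its kind, with a log2 fold change of 0.22 (SE 0.0847, adjusted p = 0.158) and an interval of 0.02 to 0.43. In the exon-count files 16 of its 19 exons were above both controls in Asxl2-/- replicate 2 and 3 lay between them. Srebf1, the SREBP with a larger part in fatty acid synthesis, was at 118 and 151 against 141 CPM in gene-count files and 164 against 181 and 190.1 CPM in exon-count files. Its knockout gene-count libraries stood on both sides of the control, and its log2 fold change was -0.12 (adjusted p = 0.531).

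Insig1, which holds the SREBP precursors in the endoplasmic reticulum, was at 25.6 and 31.98 against 31.9 CPM in gene-count files and 25.2 against 26.4 and 27.02 CPM in exon-count files, with a log2 fold change of -0.11 (SE 0.119). Stard4, a carrier of cholesterol between membranes, was at 54.1 and 54.1 against 49.01 CPM in gene-count files and 48.1 against 46.8 and 45.9 CPM in exon-count files. Stard4 was higher in the knockouts within both kinds of file but by little, at a log2 fold change of 0.10 (SE 0.0801, interval -0.10 to 0.29). In all, 10 members were lower and 3 higher without overlap within both kinds of file (32.3% and 9.68%, against 23.3% and 25.4% of all genes), and 18 overlapped. The 3 higher ones were Srebf2, Stard4 and Fads1.

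**Figure D3:**
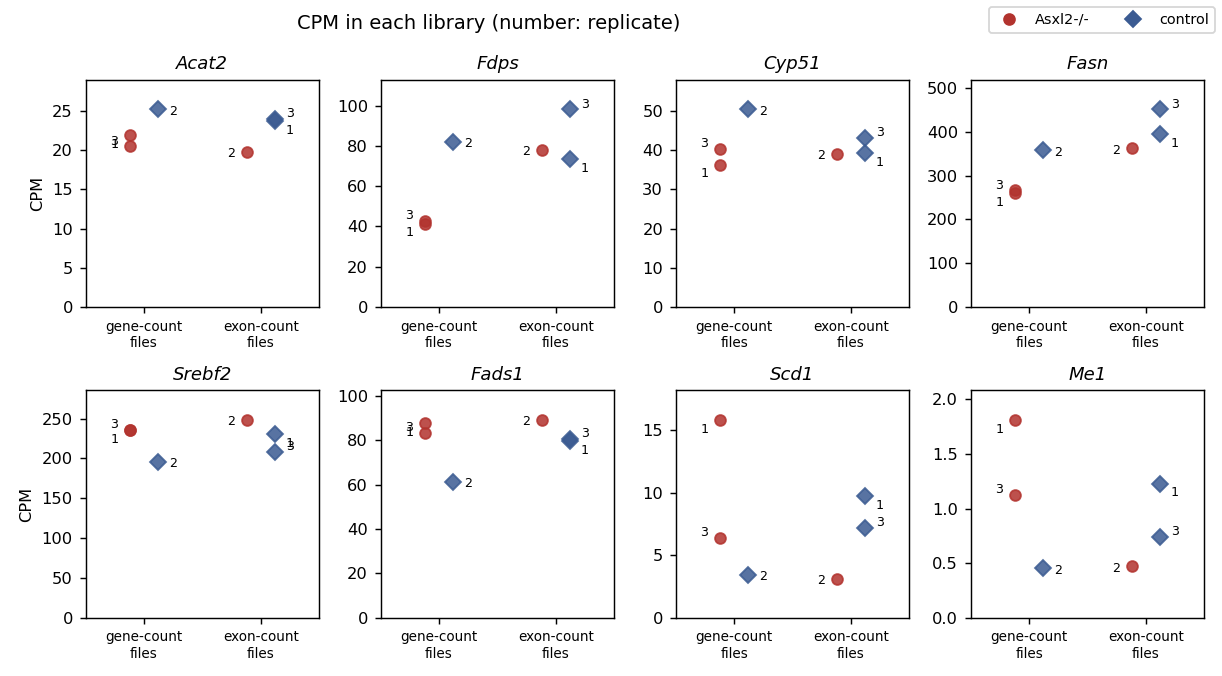
CPM of 8 members in each library, with gene-count and exon-count files apart, since the 2 kinds are not comparable in level. Red circles are Asxl2-/- and blue diamonds control libraries, numbered by replicate. For Acat2, Cyp51 and Fasn the knockouts lie below the controls in both kinds of file, for Srebf2 and Fads1 above them, and for Scd1 and Me1 the order turns between the kinds.

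Fatty acid synthesis was led by Fasn, the synthase that builds palmitate. Fasn, on chromosome 11, 120805958 to 120824547 (mm10), was at 260.0 and 266 CPM in the knockout gene-count libraries against 358 CPM in the control, and 362 CPM in the knockout exon-count library against 395 and 451 CPM in the controls. The knockouts were below the controls in both kinds of file, and the log2 fold change was -0.33 (SE 0.0993, adjusted p = 0.108, interval -0.58 to -0.09), a level 0.793 times that of the controls. In the knockout exon-count library most exons shared the lower value. Of the 43 exons of Fasn, 41 had fewer CPM in Asxl2-/- replicate 2 than in both controls, and 2 lay between them. Fasn passed the threshold with DESeq2 (adjusted p = 0.0154), without control replicate 1 (0.0464) and with a replicate block (0.00394). Over the remaining alternatives its adjusted p ran from 0.0801 to 0.488.

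The enzymes around Fasn had values nearer to 0. Acly had 323 and 335 against 355 CPM in gene-count files and 464 against 464 and 494 CPM in exon-count files, with a log2 fold change of -0.08 and an interval of -0.28 to 0.12. For Acaca, the carboxylase that makes malonyl-CoA, the values were 69.3 and 75.7 against 77.2 CPM in gene-count files and 91.96 against 78.1 and 97.4 CPM in exon-count files and the log2 fold change -0.01 (interval -0.29 to 0.27). Elovl6, which elongates palmitate, was at 65.6 and 72.7 against 65.02 CPM in gene-count files and 42.2 against 43.96 and 46.3 CPM in exon-count files and -0.00 (interval -0.24 to 0.23). The lower ends of these intervals were all above the log2 fold change of Fasn, though the difference between the genes was not tested.

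Of the 4 desaturases 2 were above and 2 below 0. Fads1, a desaturase of polyunsaturated fatty acids on chromosome 19, 10182888 to 10196872 (mm10), was at 87.8 and 83.3 CPM in the knockout gene-count libraries against 61.3 CPM in the control, and 89.1 CPM in the knockout exon-count library against 79.6 and 80.7 CPM in the controls. The knockouts were higher in both kinds of file, with a log2 fold change of 0.32 (SE 0.102, adjusted p = 0.122), and 10 of 12 exons were above both controls in Asxl2-/- replicate 2. With a replicate block its adjusted p was 0.00537. Without control replicate 2 the log2 fold change of Fads1 was 0.16. Its neighbour on chromosome 19, Fads2, which acts before it in the same pathway, was at 46.4 and 45.5 against 41.02 CPM in gene-count files and 66.7 against 91.3 and 102 CPM in exon-count files. Within gene-count files Fads2 was higher in the knockouts (log2 fold change 0.16) and within exon-count files lower (-0.53, with all 12 exons below both controls), so the joint value of -0.19 (SE 0.169) averages opposite signs.

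Scd2 was at 370.5 and 449 against 456 CPM in gene-count files and 314 against 307 and 348 CPM in exon-count files, with a log2 fold change of -0.11 (SE 0.113). Scd1, at low level, had 15.8 and 6.38 against 3.44 CPM in gene-count files and 3.14 against 9.75 and 7.19 CPM in exon-count files. Its log2 fold change was 1.54 within gene-count files, -1.41 within exon-count files and 0.10 (SE 0.893) in the joint fit. Me1 had the same shape, at 1.81 and 1.13 against 0.452 CPM in gene-count files and 0.4698 against 1.23 and 0.738 CPM in exon-count files. Both genes were highest in Asxl2-/- replicate 1 among the gene-count files and in control replicate 1 among the exon-count files. Of 10 adipocyte markers 5, Adipoq and Fabp4 among them, were highest in this same pair of libraries and 5 were not. The share of all genes highest in this pair was not computed, so this count has no background to be read against. Fabp4 was at 2.38 and 0.529 against 0.208 CPM in gene-count files and 0.413 against 1.497 and 0.1898 CPM in exon-count files. Lpl, the most abundant of the 10, was highest in control replicate 2 (15.2 CPM) and Asxl2-/- replicate 2 (5.86 CPM). Of the adipocyte markers 4 passed the filter on low counts, 0 were called, Lep was at 0 in every library, and their summed level was 11.3 and 5.68 against 16.0 CPM in gene-count files and 7.40 against 7.66 and 5.95 CPM in exon-count files. Their part in the values of Scd1 and Me1 was not tested.

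Over the 397 exons of the 31 members, 205 were below both controls in Asxl2-/- replicate 2, 66 above both and 126 between. Srebf1 (18 of 19 exons below) and Lss (21 of 22) stood with Fasn, and Acaca was mixed, with 7 exons below and 16 above out of 54. This is a description of 1 knockout library, and exons of 1 gene are not independent. The share over the exons of all genes was not computed, so these counts have no background to be read against. The same holds for the exon counts given above for single genes.

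Other genes of lipid metabolism were read from the same fit in 5 lists. Of the other sterol and isoprenoid genes 0 of 8 tested were called, and 7 were below 0, with a median log2 fold change of -0.15. The named genes of this list belong to ubiquinone synthesis, with log2 fold changes of -0.35 for Pdss1 (adjusted p = 0.109), -0.17 for Coq2 and -0.21 for Pdss2. Idi2, an Idi1 paralog, was at 0 in every library.

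Among 16 genes of SREBP processing and lipoprotein uptake 0 were called, with a median of -0.08. Mbtps2, a protease that releases SREBPs, was at 0.27, Lipa, the lysosomal lipase, at -0.28 and Rnf145 at -0.24, none past the threshold.

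The list of LXR targets, sterol efflux and esterification had the highest median of the 5, 0.43 over 10 tested genes, of which 6 were above 0, 4 below 0 and 1, Apoe, rose. Apoe, the apolipoprotein that carries cholesterol out of cells, was at 245 and 279 CPM in the knockout gene-count libraries against 90.3 CPM in the control, and 355 CPM in the knockout exon-count library against 213 and 136 CPM in the controls. Each knockout was above each control of its kind, with a log2 fold change of 1.28 (SE 0.216, adjusted p = 0.0461). The call is a narrow one. It was lost with median-ratio scaling (adjusted p = 0.0503), library size alone (0.0667), the length trend removed (0.0550), no file kind (0.113), the longest exon (0.0520) and without either of Asxl2-/- replicates 1 and 3 or control replicates 2 and 3 (0.0976 to 0.164), with a log2 fold change between 1.00 and 1.37 in all these fits.

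The cholesterol exporters Abca1 and Abcg1 were above 0 without passing the threshold. Abca1 was at 21.04 and 20.2 against 7.19 CPM in gene-count files and 18.6 against 16.4 and 8.73 CPM in exon-count files, with a log2 fold change of 1.03 (SE 0.332, adjusted p = 0.123). Abcg1 was at 58.7 and 54.5 against 32.7 CPM in gene-count files and 56.2 against 44.8 and 30.9 CPM in exon-count files, with a log2 fold change of 0.68 (SE 0.164, adjusted p = 0.0791). Mylip, a ligase that degrades the LDL receptor, had a log2 fold change of 0.63 (SE 0.1699, adjusted p = 0.0928). These 3 were called with DESeq2 (adjusted p 0.0073 to 0.0263), with a replicate block and without control replicate 1, and with no other alternative. They showed knockouts above controls within both kinds of file, which was so of 25.4% of all genes. In the exon-count files control replicate 1 stood nearer to the knockout than control replicate 3 did for each of them. On the other side of 0, Lpcat3, an acyltransferase of phospholipids, was at -0.31 (adjusted p = 0.141) and Nr1h2, which encodes an LXR receptor, at -0.22 (adjusted p = 0.144), both with knockouts below controls within both kinds of file, which was so of 23.3% of all genes.

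Of 22 tested genes for other steps of fatty acid synthesis and elongation 1 rose, Ptplad2 (also named Hacd4), of the family of dehydratases that act in chain elongation. It was at 17.3 and 11.7 against 3.30 CPM in gene-count files and 15.4 against 6.08 and 3.46 CPM in exon-count files, with a log2 fold change of 1.90 (SE 0.301, adjusted p = 0.0401). It too was not called without either of Asxl2-/- replicates 1 and 3 or control replicates 2 and 3 (adjusted p 0.0772 to 0.146), nor with library size alone (0.0617) or the longest exon (0.0513). Elovl1 was at -0.44 (adjusted p = 0.0938), Mcat, of mitochondrial fatty acid synthesis, at -0.36 (0.101), and Acacb, the carboxylase paralog of Acaca, at 0.91 (0.128). The median of the list was -0.07. Fatty acid oxidation had 0 of 22 called, 14 below 0 and a median of -0.06, and among the genes with the smallest p-values were Hadh at 0.40, Cpt1a, the gatekeeper of mitochondrial import, at 0.33 and Acaa2 at -0.21.

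**Figure D4:**
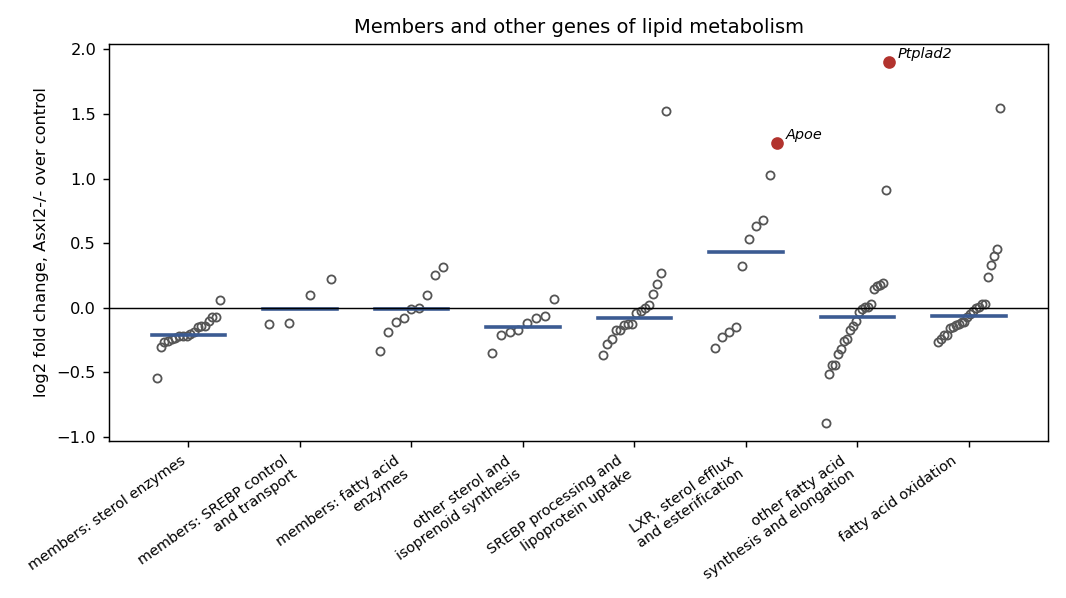
Log2 fold change of Asxl2-/- over control for the members (left 3 columns) and the other lists of lipid metabolism (right 5 columns). Each circle is a tested gene in order of its value, filled where the adjusted p is under 0.05, and the bar is the median of the list. Only Apoe and Ptplad2 are filled, and the bar of the sterol enzymes is at -0.21 and that of the LXR list at 0.43.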

How the data were processed

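Poly(A)-selected, unstranded libraries of sorted LSK cells were sequenced by the authors in 3 biological replicates per group. The deposited values are raw read counts on RefSeq transcripts of mm10, and the submitters' processing notes name STAR, featureCounts and DESeq2 without versions. Gene-count files have 33068 lines and exon-count files 317548 lines, 1 per exon. Each symbol was represented by the transcript with the longest summed exon length, with exon counts summed. In genes with over 10 exons the exon-count files held a median of 1.99 times the counts of the gene-count files.

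For all genes together, edgeR 4.0.16 (R 4.3.3) tested the counts by quasi-likelihood, with TMM scaling, filterByExpr and terms for kind of file and group, two-sided, adjusted by the Benjamini-Hochberg method at 0.05. CPM use the TMM-scaled totals. The script was tested on simulated data. Alternatives were DESeq2 1.42.0, limma-voom (limma 3.58.1), other scalings and filters, no file kind, a replicate block, another exon or transcript rule, each kind of file alone and each library left out. Named were all members, of other pathway lists up to 4 genes with the smallest p-values, and of marker lists up to 3 called genes. Kit, Cd34, Flt3, Ly6a, Adipoq, Fabp4, Lpl, Lep, Lpcat3 and Nr1h2 were named after their values were seen. Some genes that this rule names are not reported here. The members and lists were chosen with earlier results of these data known.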

Additional observations from a re-analysis of the deposited data

How the results depend on the processing

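The count of called members, 0, was 1 with DESeq2 (Fasn) and 0 to 1 with a library left out (Fasn without control replicate 1). Without Asxl2-/- replicate 2 or without control replicate 2, the fit compares the groups within 1 kind of file only. Calls from those fits are not counted in this paragraph. The count over all genes, 331, was 2329 with DESeq2, 161 with library size alone and 9 to 1312 with a library left out, lowest without control replicate 3 and highest without control replicate 1. The count in the other pathway lists, 2, was 13 with DESeq2, 1 after removal of the length trend, 1 under median-ratio scaling, 0 with library size alone and 0 with the longest exon, and 0 to 9 with a library left out. The cause of these moves was not tested.

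Whether the replicate number pairs the libraries is not settled. Same-numbered libraries were always of different kinds of file, and their deviations from the group means correlated at 0.294, -0.00766 and -0.00277 as deposited but at 0.635, 1 and 0.388 with the file kind removed, where the value for replicate 2 is 1 by construction. After that removal every library correlated best with its own number, and as deposited not every one did. The removal ties the other values too. It makes the deviations of replicate 2 the same in both groups, and those of replicates 1 and 3 in either group sum to their opposite. The order of the correlations after removal is therefore partly fixed in advance and cannot decide the pairing. With the number as a replicate block, which leaves 1 residual degree of freedom, the calls were 5179 over all genes, 3 members (Fads1, Fasn, Fdps) and 26 in the other lists.

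The following log2 fold changes turned in sign. With library size alone Acaca was at 0.0899, Acly at 0.0222, Elovl6 at 0.0937, Fdft1 at 0.0296 and Sc5d at 0.0318. Without the file kind Elovl6 was at 0.217, Sc5d at 0.0177, Scd2 at 0.0289 and Mvk at -0.115. Elovl6 was at 0.00577 with at least 10 counts in every library, Scd1 at -0.195 with limma-voom and -0.0211 with the length trend removed, and Asxl2 at -0.0541 with that trend removed. With a library left out the ranges were -0.0909 to 0.0727 for Acaca, -0.0941 to 0.0892 for Elovl6, -0.529 to 0.164 for Fads2, -0.257 to 0.00465 for Hsd17b7, -1.06 to 1.69 for Me1, -0.504 to 0.0666 for Mvd, -0.00398 to 0.124 for Mvk and -1.43 to 1.69 for Scd1. In those fits 23 to 25 members were below 0.

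Me1 (13 to 64 counts) and Scd1 (99 to 508 counts) were the 2 members with under 100 counts in a library. Their standard errors were 0.780 and 0.893, whereas Tm7sf2, at 149 to 475 counts, had 0.169. The part of depth in the width of their intervals was not tested. The groups hold 3 libraries each in 2 kinds of file, and genotype and sex cannot be told apart. The summary of members with at least 100 counts was added after the data were seen.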
